A study of Homo sapiens with 6 samples.

Results

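The 10 genes described here are well known transcriptional targets of the coactivators YAP and TAZ. They are CCN1, CCN2, ANKRD1, AMOTL2, CRIM1, AXL, AJUBA, LATS2, EDN1 and NUAK2. They were chosen by symbol and each matched 1 row of the deposited table, 10 of 38900 Ensembl gene IDs in all. RNA was measured by sequencing after polyA selection in 6 libraries of hTERT RPE1, an established line of retinal pigment epithelial cells immortalised with telomerase. All cultures were held at full confluency for 5 days to make them quiescent and were then given fresh medium for 6 hours. In 3 libraries, replicates 1 to 3, the medium held 100 nM combretastatin A4 (CA4), a small molecule that binds tubulin and takes microtubules apart. The other 3 libraries, also replicates 1 to 3, had 0.1% DMSO and served as the baseline. The comparison asks how transcripts of these targets differ once quiescent cells have lost their microtubules. The design holds 1 line, 1 dose and 1 time. The labels do not say that the replicates are separate cultures, so the p-values measure the spread between these libraries, which may be technical.

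YAP and TAZ (the latter encoded by WWTR1) have no DNA-binding domain of their own and act in the nucleus through the TEAD transcription factors. The Hippo kinases LATS1 and LATS2 phosphorylate YAP and TAZ and thereby hold them in the cytoplasm or mark them for breakdown. Their activity is known to be low in crowded, rounded cells and high in spread cells under actin tension. Several of their targets feed back on the pathway, among them the kinase LATS2 and the scaffold AMOTL2, which restrain YAP, and the LIM protein AJUBA, which binds LATS kinases.

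The libraries held between 19524936 and 22538004 recovered reads, and 1 read was worth 0.935 to 1.12 normalized counts. Normalized counts are the authors' values, the reads of a gene divided by a scaling factor of the library. On the first principal component of all tested genes, DMSO replicate 1 lay nearest to the CA4 libraries. The line carries few marks of differentiated pigment epithelium. RPE65, RLBP1, TYR, TYRP1 and PMEL averaged at most 21.8 normalized counts and TTR was listed at 0 in every library, while MITF and OTX2 averaged 671 and 389. The sum of the 9 pigment epithelium markers ranged from 1129 to 1835 in DMSO and from 635.9 to 1031 in CA4, so the groups did not overlap. MITF and OTX2 made up most of that sum. OTX2 was apart between the groups, at 423 to 630.1 in DMSO and 226.2 to 254.7 in CA4, as was the scarce RPE65, at 20.57 to 40.83 and 13.46 to 18.95, while MITF, BEST1 and PMEL overlapped. The epithelial keratins KRT8 and KRT18 together had 22510 to 25480 in DMSO and 25980 to 31420 in CA4. Of the blood markers, HBB was listed at 0 throughout and PTPRC stayed at or below 10.63. In bulk RNA, fewer cells that express a gene and less RNA of it per cell cannot be told apart, and the part of these markers in the results below was not tested.

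TEAD factors bind a short element whose core reads GGAATG, or CATTCC on the other strand. The 250 bases upstream of the annotated starts were searched on both strands for this core, for the AP-1 motif TGANTCA and for the CArG box bound by SRF. Promoter sequences are RefSeq's on GRCh38.p14. Entries were found for 8 of the 10 genes, with 13 start sites among them, and CCN1 and CRIM1 had none. The TEAD core was present at 7 of the 13 starts, belonging to 7 of the 8 genes, against 11.9% of all 35116 windows of this length. Genes with several starts had more chances of a match, and the genes were chosen as YAP and TAZ targets to begin with. At 3 of the 13 starts there were at least 2 cores, those of CCN2, ANKRD1 and NUAK2, against 0.94% of all windows. CCN2 had 3, which 0.0826% of windows reached. The AP-1 motif was found at 1 start, that of ANKRD1 (6.57% of all windows), and the CArG box at 0 (1.16% of all windows). A match describes letters and does not show that a factor binds there. The stretches below are the starts with several cores, and 1 from AXL, a gene that did not pass the test, to show that a core is also found there. They are written 5′ to 3′ along the gene's strand, each with 12 bases on either side, and capitals mark the core.
CCN2, chr6:131951450-131951553, minus strand: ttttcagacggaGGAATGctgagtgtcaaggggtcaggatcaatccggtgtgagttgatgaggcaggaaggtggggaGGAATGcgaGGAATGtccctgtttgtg
ANKRD1, chr10:90921290-90921319, minus strand: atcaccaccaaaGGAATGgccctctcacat
ANKRD1, chr10:90921198-90921227, minus strand: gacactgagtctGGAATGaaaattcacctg
NUAK2, chr1:205321925-205321954, minus strand: tcccctagtcccCATTCCtggtgggcgggt
NUAK2, chr1:205321746-205321775, minus strand: ttataacaacttGGAATGctgtgctttact
AXL, chr19:41226531-41226560, plus strand: cagactttgcacCATTCCactccctccgct
In CCN2 the cores begin 169, 104 and 95 bases before the start, so the latter pair lies side by side. Those of ANKRD1 begin 220 and 128 bases before the start and those of NUAK2 197 and 18. These distances are from the RefSeq starts. In GENCODE 29, where both genes begin further upstream, the ANKRD1 core at 128 and the NUAK2 core at 18 lie inside the gene's own exons. The same holds for the cores of AMOTL2 and AJUBA, the only ones counted for those genes. The AXL core lies 212 bases before the second of 2 annotated starts, and the first start had none.

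All 10 genes were abundant enough to be tested. CCN1, ANKRD1, CRIM1, EDN1 and NUAK2 rose in CA4, by 1.63-fold to 2.18-fold, and 0 of the 10 fell. Genes passed at an adjusted p below 0.05 (limma, Benjamini-Hochberg over the 13928 genes tested). Of all tested genes, 4.94% passed, 2.97% as higher and 1.97% as lower. CCN2, AMOTL2 and LATS2 had fitted log2 fold changes of 0.73, 0.38 and 0.27 that did not pass, and AXL and AJUBA lay at -0.05 and 0.02. The median log2 fold change of the 10 genes was 0.72, beside -0.008 for all tested genes. In 7 of the 10 genes every CA4 library lay above every DMSO library, which 14.3% of all tested genes did, and 27.7% of them had no overlap in either direction. The number of the 10 that passed was 5 in edgeR's quasi-likelihood test on the recovered reads, where 4.62% of all genes passed, and 7 in DESeq2, where 12.3% did. Without the mean trend in limma's variance estimate only ANKRD1 of the 10 passed, where 0.74% of all genes did, and the adjusted p of the other 4 lay between 0.0563 and 0.0636. The number of the 10 that passed was between 2 and 5 when 1 library was left out. It was 2 without DMSO replicate 2 or CA4 replicate 3, where 100 and 150 of all 13928 genes passed. It was 3 without DMSO replicate 3 or CA4 replicate 1, where 81 and 156 of all genes did. It was 5 without DMSO replicate 1 or CA4 replicate 2, where 994 and 503 of all genes did.

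**Figure D1:**
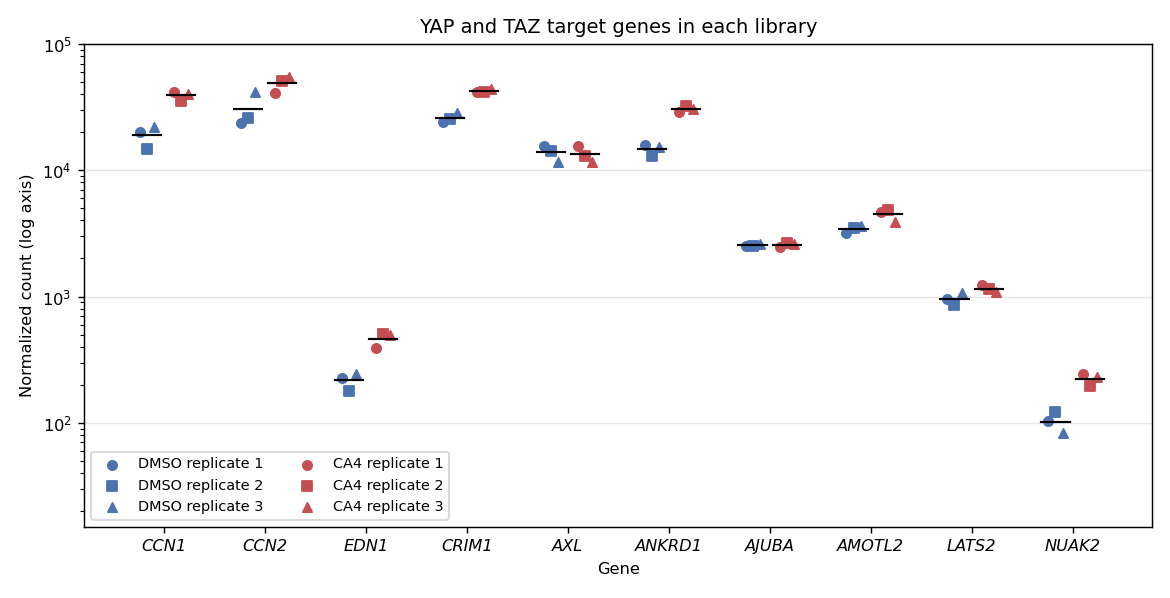
Normalized counts (log axis) of the 10 genes in each of the 6 libraries, DMSO in blue and CA4 in red, with a symbol for each replicate number and a black line at the group mean (n = 3). The red points lie above the blue ones in 7 genes, while those of CCN2, AXL and AJUBA overlap.

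CCN1 and CCN2 encode secreted matricellular proteins that bind integrins, and both are standard reporters of YAP activity. CCN1 (ENSG00000142871, chr1:85580761-85583962 in GENCODE 29 on GRCh38, plus strand) had 20136, 14646 and 22163 normalized counts in the DMSO libraries, given here and below in the order of their replicate numbers, and 41850, 35649 and 40466 in the CA4 libraries. Every CA4 library was well above every DMSO library. The log2 fold change was 1.07 with a standard error of 0.16 (adjusted p = 0.0158 in limma). Leaving out CA4 replicate 1 or CA4 replicate 3 ended the call, and the limma adjusted p of the 6 fits without a library ran from 0.0198 to 0.0642.

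CCN2 (ENSG00000118523, chr6:131948176-131951373, minus strand) had 23467, 25763 and 41608 normalized counts in DMSO and 41178, 50852 and 54647 in CA4. DMSO replicate 3 reached the level of the lowest CA4 library, so the groups overlapped. The log2 fold change of 0.73 had a standard error of 0.22 and an interval from 0.22 to 1.24, and it missed the threshold (adjusted p = 0.0991 in limma). Without DMSO replicate 3 it was 0.98, and the adjusted p over the fits without a library ran from 0.0515 to 0.278. CCN2 passed in DESeq2 (adjusted p = 0.0153) and with a replicate block (0.00814 in limma), but not in edgeR (0.123). In GENCODE 29, 8.34% of its exon bases lie in an antisense gene, and whether the authors' counting used strand is not given in the sources used here.

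EDN1 (ENSG00000078401, chr6:12290363-12297194, plus strand) encodes the precursor of endothelin-1, a secreted peptide that constricts vessels through G protein-coupled receptors. It was far less abundant, with 227, 179.5 and 242.1 normalized counts in DMSO and 391.4, 501.5 and 496 in CA4. All CA4 libraries were above all DMSO libraries. EDN1 rose 2.14-fold (SE 0.17 on the log2 scale, adjusted p = 0.0167 in limma), a call lost in 3 of the 6 fits without a library (adjusted p from 0.0227 to 0.0702). EDN1 is also an endothelial gene. The 5 endothelial markers PECAM1, CDH5, VWF, KDR and TEK were all detected, with summed levels of 1661, 1467 and 1138 in DMSO and 1818, 1472 and 3470 in CA4. Their sum was highest in CA4 replicate 3, and the part of these markers in the EDN1 result was not tested.

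CRIM1 (ENSG00000150938, chr2:36355926-36551135, plus strand) encodes a membrane protein with cysteine-rich repeats that binds bone morphogenetic proteins. It had 24086, 25530 and 28454 normalized counts in DMSO and 41377, 41711 and 43688 in CA4. Its CA4 libraries differed from one another by less than any other member's, with a coefficient of variation of 2.96%. CRIM1 rose by 0.70 on the log2 scale (SE 0.09, adjusted p = 0.0108 in limma). Without DMSO replicate 2 the adjusted p was 0.0536, the highest of the 6 fits without a library, and the lowest was 0.0129.

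AXL (ENSG00000167601, chr19:41219203-41261766, plus strand) encodes a receptor tyrosine kinase whose ligand is GAS6. It had 15641, 14197 and 11652 normalized counts in DMSO and 15638, 12868 and 11617 in CA4. The groups overlapped almost completely, and in each of them replicate 1 was the highest and replicate 3 the lowest. The log2 fold change was -0.05 with an interval from -0.38 to 0.29 (SE 0.14, adjusted p = 0.879 in limma), and its sign changed with the library left out.

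ANKRD1 (ENSG00000148677, chr10:90912096-90921276, minus strand) encodes an ankyrin repeat protein of the nucleus and the sarcomere. It had 15981, 13049 and 15380 normalized counts in DMSO and 28915, 32040 and 30731 in CA4. The lowest CA4 library was far above the highest DMSO library. ANKRD1 rose by 1.05 on the log2 scale (SE 0.10, adjusted p = 0.00404 in limma), which ranked it at place 24 of all tested genes by p. Alone among the 10 genes it passed in all 17 alternative fits, with adjusted p-values up to 0.0354.

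NUAK2 (ENSG00000163545, chr1:205302059-205321791, minus strand) encodes a kinase of the AMPK family that acts on myosin phosphatase and thereby on actin tension. It was the least abundant of the 10, with 102.4, 121.5 and 82.61 normalized counts in DMSO and 244.5, 194.1 and 229.6 in CA4. The groups did not overlap. NUAK2 rose by 1.13 on the log2 scale (SE 0.19, adjusted p = 0.0227 in limma). The call rested on between 87 and 253 reads per library and was lost in 4 of the 6 fits without a library (adjusted p from 0.0349 to 0.0902).

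AMOTL2, LATS2 and AJUBA encode regulators of the pathway itself. AMOTL2 (ENSG00000114019, chr3:134355874-134375479, minus strand), an angiomotin that binds YAP, had 3211, 3497 and 3594 normalized counts in DMSO and 4696, 4886 and 3860 in CA4. The groups did not overlap, but CA4 replicate 3 was close to the DMSO libraries. Its log2 fold change was 0.38 (SE 0.11, adjusted p = 0.0862 in limma), and it passed in DESeq2 (adjusted p = 0.0223) and with a replicate block (0.0421 in limma). LATS2 (ENSG00000150457, chr13:20973032-21061547, minus strand), a kinase that phosphorylates YAP and TAZ, had 948.4, 862 and 1065 in DMSO and 1228, 1144 and 1088 in CA4. Its groups were apart by a narrow margin, and the log2 fold change was 0.27 with an interval from 0.02 to 0.52 before adjustment (SE 0.11, adjusted p = 0.187 in limma). AJUBA (ENSG00000129474, chr14:22971174-22982642, minus strand) had 2497, 2492 and 2623 in DMSO and 2444, 2655 and 2596 in CA4. Its libraries varied little, with coefficients of variation of 2.92% in DMSO and 4.23% in CA4, and the groups overlapped. The log2 fold change of AJUBA was 0.02 with an interval from -0.16 to 0.19 (SE 0.07, adjusted p = 0.931 in limma), and its sign changed with the scaling.

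The 10 genes covered a wide range of abundance. Levels can be compared between genes only per length, here as normalized counts per kb of the merged exons in GENCODE 29. On that scale CCN2 stood at the top in DMSO with 12900 ± 4220 (SD, n = 3), followed by CCN1 with 7730 ± 1580 and ANKRD1 with 7480 ± 783. The libraries of CCN1 and ANKRD1 overlapped, and those of every other neighbouring pair were apart. CRIM1 had 3650 ± 312 and AXL 2680 ± 392, while AMOTL2 had 574 ± 33.3 and AJUBA 424 ± 12.4 (SD, n = 3 each). LATS2 followed with 172 ± 18.3, EDN1 with 106 ± 16.1 and NUAK2 with 29.7 ± 5.66 (SD, n = 3 each). In CA4 the order was the same except that EDN1, at 228 ± 30.5, stood above LATS2, at 207 ± 12.7 (SD, n = 3 each), with overlapping libraries. The 5 genes that rose thus included 3 of the 4 most abundant and the 2 least abundant in DMSO.

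**Figure D2:**
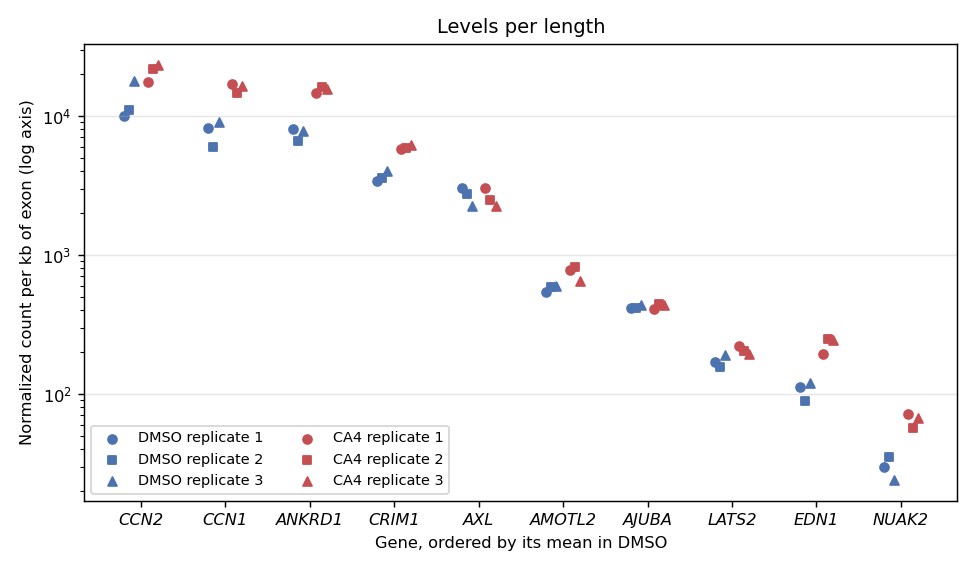
Normalized counts per kb of exon (log axis) for the 10 genes, ordered by their mean in DMSO, with 1 point per library (DMSO blue, CA4 red). In DMSO, levels ran from 12900 for CCN2 down to 29.7 for NUAK2, and CCN1 and ANKRD1 overlapped.

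Scaled to mean 0 and SD 1 over the 6 libraries and averaged, the 10 genes stood at -0.699, -0.89 and -0.405 in DMSO replicates 1, 2 and 3 and at 0.654, 0.785 and 0.554 in CA4. DMSO replicate 1 was not the DMSO library closest to CA4 by this average, unlike on the first principal component. Without it, the same number of genes passed, 5, and the median log2 fold change was 0.61. DMSO replicate 3 was the highest of the DMSO libraries in CCN1, CCN2, EDN1, CRIM1, AMOTL2, AJUBA and LATS2, and the lowest in NUAK2 and AXL. Of 11679 other genes that averaged 50 or more normalized counts, those that followed the average most closely were LARP1, PYCR3, MKRN2, MYBL1 and BBOF1, with Pearson r from 0.991 to 0.996 over the 6 libraries. These are the closest 5 of all these genes, 4.02% of which had r above 0.9. LARP1 had 4140, 3921 and 4214 normalized counts in DMSO and 5260, 5465 and 5193 in CA4.

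**Figure D3:**
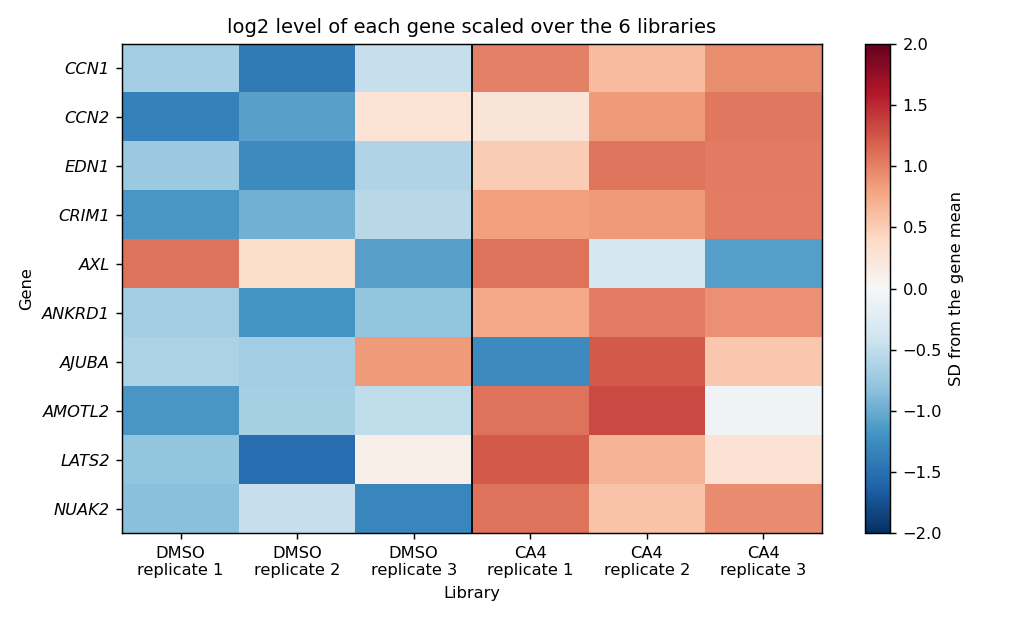
Levels of the 10 genes (rows) in the 6 libraries (columns), as log2(normalized count + 1) scaled to mean 0 and SD 1 for each gene, blue for low and red for high. DMSO is blue and CA4 red throughout in CCN1, EDN1, CRIM1, ANKRD1 and NUAK2. The colours are mixed in AXL and AJUBA, DMSO replicate 3 is on the red side in CCN2 and LATS2, and CA4 replicate 3 is slightly on the blue side in AMOTL2.

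Other YAP and TAZ targets were read from a list of 16 genes, of which 15 were tested and FOXF2 was too low. Of the 15, 6 rose (2.97% of all tested genes) and 0 fell, and the list's median log2 fold change was 0.41. GADD45A, a growth arrest gene, had 1481, 1117 and 1225 normalized counts in DMSO and 2691, 2778 and 2770 in CA4, a log2 fold change of 1.12 (SE 0.11, adjusted p = 0.0057 in limma). F3, tissue factor, with the highest fitted change of the list, had 7551, 5165 and 4684 against 19673, 14526 and 14390, a log2 fold change of 1.50 (SE 0.20, adjusted p = 0.0122 in limma). ARHGEF17, a guanine nucleotide exchange factor, rose by 0.58 (SE 0.09, adjusted p = 0.0194 in limma). MYOF, myoferlin, a membrane repair protein, rose by 0.55 (SE 0.10, adjusted p = 0.0239 in limma). The MYOF call was lost under quantile normalization, at 0.36 (adjusted p = 0.0988 in limma), and at the same total (adjusted p = 0.0521). The other 2 that rose, named after their values were seen, were RBMS3 and TGFB2, with log2 fold changes of 0.61 and 0.70. Among the 9 that did not pass, ARHGAP29 had the lowest fitted value, -0.19, and IGFBP3 was spread widely, with 24768, 19883 and 49992 in CA4. The number that passed was between 1 and 4 when 1 library was left out. It was 1 without DMSO replicate 2 or DMSO replicate 3, where 100 and 81 of all 13928 genes passed. It was 2 without CA4 replicate 1 (156 of all genes) and 3 without CA4 replicate 2 or CA4 replicate 3 (503 and 150). It was 4 without DMSO replicate 1 (994 of all genes). Only GADD45A of the 4 genes first named passed in all 6 of those fits.

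**Figure D4:**
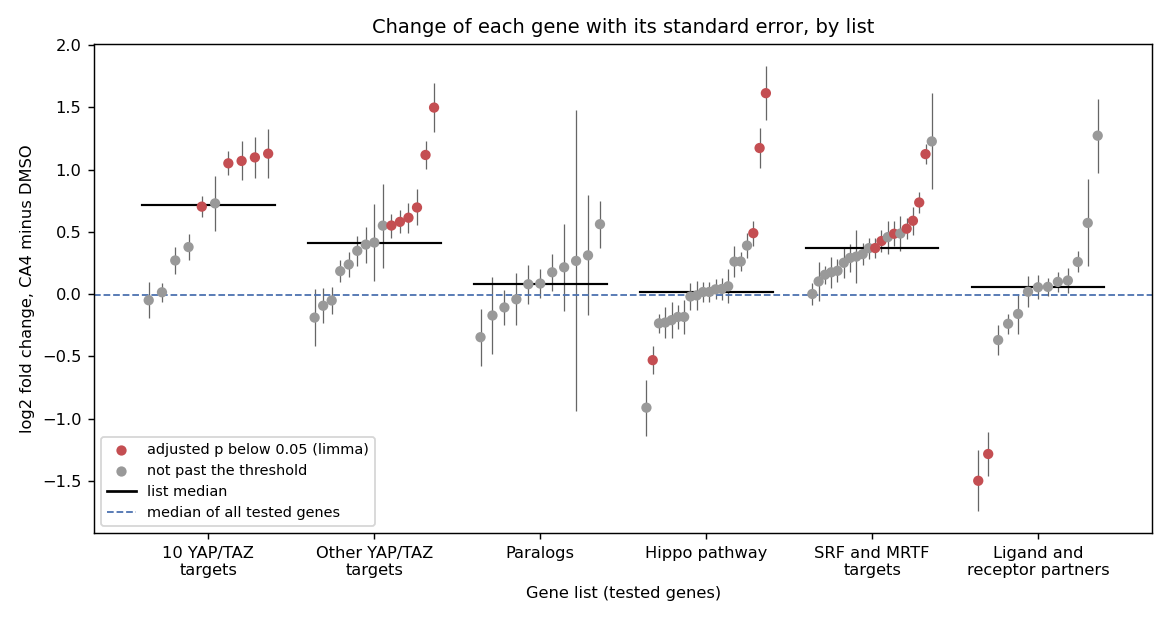
Fitted log2 fold changes (CA4 minus DMSO) of the tested genes in 6 lists, each with limma's standard error as a bar, in red where the adjusted p was below 0.05. Black lines mark list medians, from 0.72 for the 10 targets down to 0.02 for the Hippo pathway, and the dashed line the median of all tested genes.

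Upstream of the targets, the transcript of the coactivator YAP did not pass the test and that of TAZ fell. YAP1 had 3775, 3378 and 3346 normalized counts in DMSO and 3577, 3742 and 3455 in CA4, a log2 fold change of 0.04 (SE 0.08, adjusted p = 0.822 in limma) whose sign turned under quantile normalization and under scaling to the same total. WWTR1, which encodes TAZ, had 5579, 5413 and 6281 in DMSO and 3497, 3981 and 4531 in CA4, and every CA4 library was below every DMSO library. WWTR1 fell by 0.53 on the log2 scale (SE 0.11, adjusted p = 0.0428 in limma). That call was lost in edgeR and in each fit without a library, with adjusted p-values from 0.00114 to 0.151 over all alternatives. Of the 20 Hippo pathway genes, all tested, 3 rose and 1 fell, where 2.97% of all tested genes rose and 1.97% fell. WWC1 (KIBRA), a scaffold that activates the LATS kinases, had 486.8, 308.5 and 290.6 in DMSO and 1306, 989.6 and 971.9 in CA4, a log2 fold change of 1.61 (SE 0.22, adjusted p = 0.0126 in limma). VGLL3, a cofactor that binds TEADs, had 1788, 1417 and 1196 in DMSO and 3711, 3236 and 2893 in CA4, a log2 fold change of 1.17 (SE 0.16, adjusted p = 0.0131 in limma). Both calls were lost without DMSO replicate 2 (adjusted p = 0.0582 for WWC1 and 0.0608 for VGLL3 in limma) and without DMSO replicate 3 (0.0627 and 0.0515). TEAD3 rose by 0.49 (SE 0.10, adjusted p = 0.0404 in limma), a call lost in each fit without a library and under all 3 other scalings. The other TEADs, named after their values were seen, did not pass. TEAD2 was at -0.91 on the log2 scale (adjusted p = 0.0615 in limma), with every CA4 library below every DMSO library. TEAD1 and TEAD4 were at 0.39 and 0.26 (adjusted p = 0.0711 and 0.256 in limma), with every CA4 library above every DMSO library. Scaled to the same total, 2 of the list rose and 2 fell, where 279 of all 13928 tested genes rose and 523 fell. In edgeR 3 of the list rose and 0 fell, where 390 of all tested genes rose and 253 fell.

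Close relatives of the 10 genes that are not counted among the classical targets were read beside them. Of 17 paralogs, 11 were tested and 0 passed in limma and 0 in edgeR, where 4.94% and 4.62% of all tested genes passed. WTIP, a relative of AJUBA and named after its values were seen, was the 1 with an unadjusted limma p below 0.05 (23% of all tested genes) and the 1 that passed in DESeq2. Their median log2 fold change was 0.085, which turned to -0.016 with the libraries scaled to the same total, and in 0 of the 11 were the groups apart, against 27.7% of all tested genes. LATS1 had 799.7, 817.1 and 1015 normalized counts in DMSO and 957.8, 870.7 and 949.6 in CA4, a log2 fold change of 0.09 (SE 0.12, adjusted p = 0.716 in limma). NUAK1, far more abundant than NUAK2, had 1663, 1652 and 2156 in DMSO and 1468, 1510 and 2451 in CA4 (log2 fold change -0.04, SE 0.21, adjusted p = 0.934 in limma). AMOTL1, a relative of AMOTL2, and LIMD1, a relative of AJUBA, stood at 0.08 and 0.18 on the log2 scale (adjusted p = 0.81 and 0.529 in limma). The signs of LATS1, NUAK1 and AMOTL1 changed with the scaling or the library left out. CCN3, the 1 other CCN gene tested, had 507.4, 446.6 and 429.1 in CA4 against 511.9, 422.6 and 561.2 in DMSO. The difference between a target and its paralog was not tested.

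Partners of the secreted and membrane targets formed a list of 14 genes, of which 13 were tested. Of the 13, 0 rose and 2 fell, beside 2.97% and 1.97% of all tested genes. EDNRA, the receptor for endothelin-1, had 185.4, 266.4 and 223.2 normalized counts in DMSO and 91.82, 86.4 and 94.74 in CA4. EDNRA fell by 1.28 on the log2 scale (SE 0.18, adjusted p = 0.0152 in limma), so that the ligand EDN1 rose where the transcript of its receptor fell, and EDNRB was too low to test. BMP4, a ligand that CRIM1 binds, had 600.7, 846.1 and 872.7 in DMSO and 224.2, 383.7 and 227.4 in CA4 (log2 fold change -1.50, SE 0.24, adjusted p = 0.0199 in limma). ECE1, the protease that makes endothelin-1 from its precursor, had a log2 fold change of 0.11 and GAS6, the AXL ligand, one of 0.06 (adjusted p = 0.567 and 0.675 in limma), both with a sign that changed with the scaling. Each of the calls of EDNRA and BMP4 held in 2 of the 6 fits without a library. ITGB3, an integrin subunit of receptors for CCN proteins and named after its values were seen, had a log2 fold change of 1.27 that did not pass (adjusted p = 0.0541 in limma), with every CA4 library above every DMSO library. Of the partners, 2 rose and 2 fell in DESeq2, where 12.3% of all tested genes passed in either direction. With a replicate block 2 rose and 3 fell, where 17.2% of all tested genes passed.

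SRF and its cofactor MRTF drive actin cytoskeleton genes and share some targets with YAP, CCN1, CCN2 and ANKRD1 among them, so a list of 20 other SRF targets was read. Of these, all tested, 7 rose (2.97% of all tested genes) and 0 fell, with a median log2 fold change of 0.37. PDLIM5 rose by 1.12 (SE 0.08, adjusted p = 0.00154 in limma), LIMA1 by 0.74 (SE 0.08, adjusted p = 0.00841 in limma), SRF itself by 0.53 (SE 0.09, adjusted p = 0.0207 in limma) and FHL2 by 0.59 (SE 0.11, adjusted p = 0.0301 in limma). The calls of PDLIM5 and LIMA1 held in all 6 fits without a library, while that of SRF was lost in 4 of them and that of FHL2 in 5. FHL2 also missed the threshold under quantile normalization and at the same total (adjusted p = 0.0521 and 0.0515 in limma). The count of this list moved with the scaling. After quantile normalization 3 rose, where 346 of all 13928 tested genes did, and at the same total 3 rose, where 279 did. In the fit reported 413 of all tested genes rose. Under the same pair of scalings, 4 of the other YAP and TAZ targets and 5 of the 10 targets rose, and the lists were not tested against each other. Scaling to the same total shifted the median of all tested genes by -0.1 on the log2 scale, and among all 688 genes that passed it moved the share that was higher in CA4 from 60% to 34.8% of 802.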

How the data were processed

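The deposited table gives normalized counts, a signal in which the authors divided the reads of each gene by a scaling factor of its library, per the file headers 1 column per library. The submitters' processing notes name Trim Galore 0.6.6, FastQC 0.12.1, Salmon 1.8.0, STAR 2.7.9a, DESeq2 1.44.0 and the build GRCh38, without roles. The annotation release is not given in the sources used here. In each library 100% of the values above 0 were whole multiples of 1 step within a tolerance of 0.01, which recovered whole reads. These may be rounded estimates. A value of 0 allows up to 3 reads, counting error only.

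Of 38900 IDs, the 13928 that averaged 10 or more normalized counts were tested on log2(normalized count + 1) with limma 3.58.1 in R 4.3.3, with treatment as the only term, a mean trend, two-sided p-values and Benjamini-Hochberg adjustment over all of them at 0.05. Fold changes are on this scale, which understates changes of low genes. Count tests on the recovered reads used edgeR 4.0.16 and DESeq2 1.42.0. The limma fit reported, limma with a replicate block, edgeR and DESeq2 were first run on simulated data without a replicate effect. The other settings were not. Symbols came from a supplied table with entries for 35803 IDs.

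The genes and lists were chosen with earlier results of these data known. From the list of other targets, 1 gene was left out and is not reported here. Named genes are the 10 targets, up to 4 genes per direction past the threshold with the smallest adjusted p in each other list, YAP1, WWTR1, GAS6, EDNRA, ECE1, LATS1, NUAK1, AMOTL1 and LIMD1, and the 5 genes most like the average of the targets. Library numbers were not taken as pairs, since the labels do not state a pairing. Same-numbered libraries deviated together with r of 0.202, 0.159 and 0.059, and differently numbered ones with r from -0.214 to 0.0741. These values do not settle whether the numbers pair the libraries, and a fit with a replicate block is given below.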

Additional observations from a re-analysis of the deposited data

How the results depend on the processing

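Among 17 alternatives, the 22 named genes that passed kept their direction in each, 4 of them passed in each, and 5 passed in all 6 fits without a library. Without the mean trend, 103 of all genes passed against 688, and 1 of the 10 targets (5 in the fit reported), 1 of the other targets (6), 0 Hippo genes (4), 1 SRF target (7) and 1 partner (2). With a replicate block, 2397 genes passed (17.2%), 7 of the 10 targets (CCN2 and AMOTL2 in addition), 10 other targets, 8 Hippo genes, 14 SRF targets, 5 partners and 0 paralogs. The numbers are not shown to pair the libraries, and 5 of the 6 libraries correlated best with the library of their own number. DESeq2 gave 1613 genes (12.3%), 1 paralog, 7 Hippo genes, 11 SRF targets and 4 partners. The SRF count was 4 without a filter and 3 under quantile normalization and with the same total. Leaving out 1 library gave 81 to 994 genes, 2 to 5 of the 10 targets, 1 to 4 other targets, 0 to 3 Hippo genes, 2 to 7 SRF targets and 0 to 3 partners. The highest of these gene counts, 994, came without DMSO replicate 1 and the lowest, 81, without DMSO replicate 3. The cause of the differences between the settings was not tested.

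Signs turned only among named genes that did not pass. Over the fits without a library, AXL ran from -0.17 to 0.047, AJUBA from -0.010 to 0.050, NUAK1 from -0.28 to 0.089 and AMOTL1 from -0.029 to 0.24. AJUBA was at -0.046 under quantile normalization, -0.017 at the same 75th percentile and -0.086 at the same total. Under quantile normalization ECE1 was at -0.0082, YAP1 at -0.063, AMOTL1 at -0.012 and GAS6 at -0.14. At the same total LATS1 was at -0.016, YAP1 at -0.063, AMOTL1 at -0.022 and GAS6 at -0.043.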

Other observations

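The spread of the 10 targets within a group was unequal. In DMSO the coefficient of variation was 32.6% for CCN2, 20.5% for CCN1 and 19% for NUAK2, against 2.92% for AJUBA and 5.79% for AMOTL2. In CA4 it was lower than in DMSO for CCN1, CCN2, ANKRD1, CRIM1, LATS2, EDN1 and NUAK2, at 8.28% for CCN1 and 14.2% for CCN2. With 3 libraries a group these spreads are imprecise, and their difference was not tested.

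CA4 replicate 3 stood apart in the endothelial genes VWF, with 1732 normalized counts against 805.1 and 717 in the other CA4 libraries and 509 to 756.2 in DMSO, and PECAM1, with 916.2 against 457.1 and 356.8 in CA4 and 283.9 to 337.5 in DMSO. IGFBP3, a secreted binding protein for insulin-like growth factors and a YAP target, was also highest in that library, at 49992 against 19883 and 24768 in the other CA4 libraries, but unlike VWF and PECAM1 it was also highest in replicate 3 among the DMSO libraries, at 26773 against 17421 and 16819. Of the other endothelial markers, CDH5 had 576.2 in that library against 353.7 and 230 in CA4 and 151 to 340.9 in DMSO, and KDR 189.5 against 138.2 and 102.1 in CA4 and 140.5 to 158 in DMSO. TEK was lowest of the CA4 libraries there, at 55.73 against 63.79 and 66.2, with 53.18 to 85.95 in DMSO. VWF, PECAM1 and IGFBP3 were chosen after their values were seen.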
